A study of Sus scrofa with 24 samples.

Results

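The regulators of mitochondrial biogenesis and dynamics described here are the coactivator PPARGC1A, the nuclear receptor ESRRA, the transcription factors TFAM and NRF1, the fusion GTPases MFN1, MFN2 and OPA1, the fission GTPase DNM1L and the outer membrane protein FIS1. Members were taken as the probe sets to which the platform annotation gives 1 of these 9 symbols and no other. This rule found 4 of the 9 genes, with 8 probe sets: 1 for PPARGC1A, 4 for TFAM, 2 for DNM1L and 1 for FIS1. They belong to 6765 genes and 10069 probe sets with a single symbol. No probe set matched ESRRA, NRF1, MFN1, MFN2 or OPA1 by symbol, gene number or accession, so the fusion GTPases were not analysed here.

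The 24 arrays cover 4 stages with 6 pigs each: 94 days after conception (dpc, before birth), and 1, 28 and 188 days after birth (dpn). All were offspring of German Landrace gilts that received the high protein [HP] diet in gestation, 3 gilts per stage, and no animals of another diet were analysed here. The mother, sex and array batch of an animal are not given. The p-values treat the 6 animals of a stage as independent although some shared a mother, which makes them too small by an unknown amount.

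Mitochondria are built from nuclear and mitochondrial genes together. PPARGC1A is a coactivator that works through NRF1 and ESRRA on genes of the respiratory chain and on TFAM, which packages mitochondrial DNA and starts its transcription. The mitochondrial network is shaped by fusion, through mitofusins and OPA1, and by fission, for which the cytosolic GTPase DNM1L assembles on the outer membrane and constricts it. FIS1 is anchored in that membrane; in yeast it recruits the fission GTPase, while in mammals MFF is a main receptor for DNM1L. In skeletal muscle this machinery accompanies the growth and partition of mitochondria between fibre types.

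The sample labels name liver and the series title names muscle. All 20 measured skeletal muscle markers exceeded background, the 95th percentile of 17 Tag control probe sets (a signal of 74.7), on every array, with summed signals of 329564 to 1113770. The 20 plasma protein markers of hepatocytes summed to 1624 to 325616, and 5 to 20 of them exceeded background. A pair of array sets stood apart. The control transcript EF1A had a 5′ over 3′ signal ratio at 1 dpn of 0.0963 to 0.135 in animals 1 to 3, against 0.670 to 0.703 in animals 4 to 6 and 0.512 to 1.05 at the other stages. At 188 dpn the liver plasma protein ALB had 12421 to 56933 in animals 1 to 3, against 80.1 to 281 in animals 4 to 6. The hepatocyte markers as a set parted there too. They summed to 54151 to 325616 in animals 1 to 3, with all 20 above background. In animals 4 to 6 they summed to 1624 to 3007, with 5 to 11 above background. In addition, animal 5 of 94 dpc had a macrophage marker sum of 26032, against 3223 to 4386 on the other arrays of its stage, and the lowest skeletal muscle sum. Calls of members that were lost without these arrays are given with and without them. Single genes of the other lists are given with all arrays, and no list was run without animal 5 of 94 dpc.

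FIS1 changed most clearly among the members, with its highest signal at 188 dpn. Its probe set had a lowest, median and highest signal of 2032, 2791 and 4008 at 94 dpc. At 1 dpn these were 1690, 2206 and 3550. At 28 dpn they were 3408, 4377 and 5034, and at 188 dpn 4576, 6284 and 7514. Every 188 dpn array lay above every 94 dpc array and every 1 dpn array, while the 28 dpn values overlapped those of each other stage. Whether a lower or higher signal came from the number of cells of a type or from the RNA per cell cannot be told apart in these bulk samples.

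By limma, with Benjamini-Hochberg adjustment over 23935 probe sets, FIS1 was higher at 188 dpn, with a geometric mean of 6044 against 2908 at 94 dpc, a log2 difference of 1.06 ± 0.20 (SE, n = 6 each, adjusted p = 0.000144). Against 1 dpn, with 2334, the difference was 1.37 ± 0.20 (adjusted p = 9.41e-06). Animal 5 of 94 dpc, with the high macrophage sum, had the lowest FIS1 signal of its stage, and without it the difference from 94 dpc was 0.95 (adjusted p = 0.000534). Both calls held in every alternative run, with differences of 0.74 to 1.59 and 1.04 to 1.71. The median over all probe sets was -0.29 at 188 dpn against 94 dpc in the deposited scaling, 0.05 after quantile normalization and 0.25 after centring arrays on their medians, so the FIS1 differences of 1.06, 0.74 and 1.59 all exceeded it.

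FIS1 rose after birth. At 28 dpn FIS1 had 4249, against 2334 at 1 dpn, and rose by 0.86 ± 0.20 (limma, adjusted p = 0.00315). The low-ratio animals 1 to 3 of 1 dpn had FIS1 signals of 1690 to 1984, below the 2429 to 3550 of animals 4 to 6. Without these 3 arrays the difference was 0.53 with an adjusted p of 0.114, and the part of the 5′ signal in it was not tested. FIS1 at 188 dpn differed from 28 dpn by 0.51 ± 0.20 (95% confidence interval 0.10 to 0.92, adjusted p = 0.092). It passed in 3 of 24 alternatives, among them centring each array on its median (0.78, adjusted p = 0.0184). Over all alternatives the difference was 0.34 to 0.78, with adjusted p-values up to 0.503. Without the high-ALB arrays FIS1 had a geometric mean of 5383 at 188 dpn, against 4249 at 28 dpn. At 1 dpn against 94 dpc it differed by -0.32 ± 0.20 (adjusted p = 0.244). In order of level the stages ran 1 dpn, 94 dpc, 28 dpn and 188 dpn, and of the neighbours 28 dpn and 94 dpc passed the test, by 0.55 (adjusted p = 0.0419). That call was lost after quantile normalization (0.36, adjusted p = 0.196). It was also lost when any 1 of 28 dpn animals 1, 2, 4, 5 and 6 or 94 dpc animals 1, 2, 5 and 6 was left out, with differences of 0.44 to 0.57 and adjusted p-values of 0.0543 to 0.109.

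**Figure D1:**
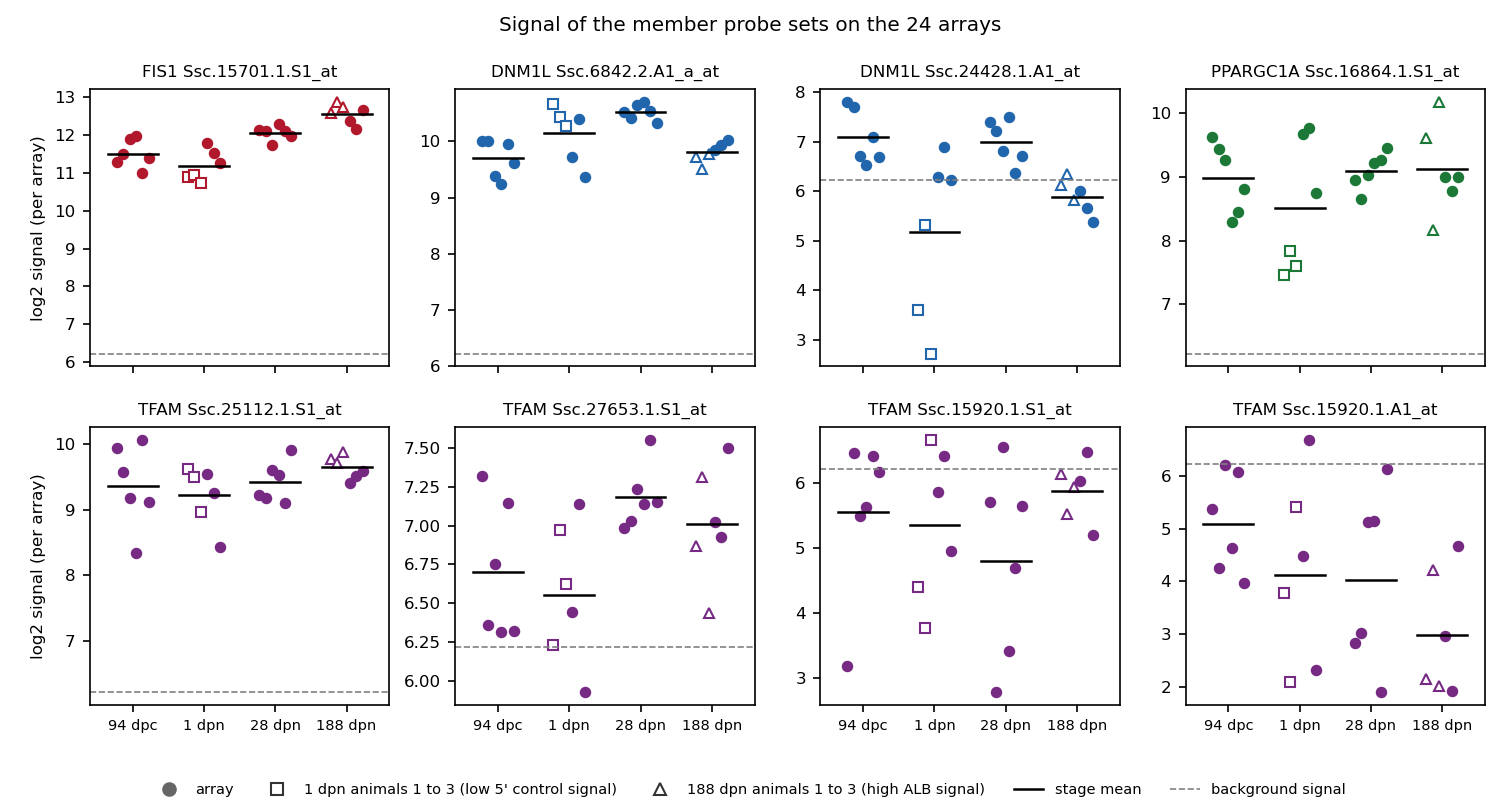
Log2 signal of the 8 member probe sets (vertical axis) on each array by stage (horizontal axis), with stage means as black lines and the background as a dashed line; squares mark 1 dpn animals 1 to 3 and triangles 188 dpn animals 1 to 3. FIS1 at 188 dpn lies above all arrays of 94 dpc and 1 dpn, the brighter DNM1L probe set is highest at 28 dpn, and PPARGC1A at 1 dpn splits by animal.

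Cell type markers moved over the same interval, in which 19.9% of all genes rose and 30.2% fell. Of 20 skeletal muscle markers 18 rose at 188 dpn against 94 dpc and none fell, with sums of 782051 to 993285 at 188 dpn and 329564 to 477365 at 94 dpc. Endothelial markers fell in 9 of 10 genes and rose in 1, with sums of 3501 to 4812 at 188 dpn and 8252 to 14642 at 94 dpc. Fibroblast markers fell in 5 of 7 genes, with sums of 14779 to 24272 at 188 dpn and 55775 to 63350 at 94 dpc. No marker was listed at 0, and the part of cell composition in the FIS1 difference was not tested. In the 188 dpn animals with high ALB, FIS1 had 6123 to 7514, against 4576 to 6445 in the other 3 animals. Without the high-ALB arrays FIS1 still differed from 94 dpc, by 0.89 (adjusted p = 0.00923).

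DNM1L, the fission GTPase, followed another course. The brighter of its probe sets had a lowest, median and highest signal of 606, 888 and 1032 at 94 dpc, and of 662, 1294 and 1616 at 1 dpn. At 28 dpn these were 1289, 1479.9 and 1669.8, and at 188 dpn 731, 897 and 1039. The 28 dpn arrays lay above all arrays of both 188 dpn and 94 dpc, whose ranges overlapped each other.

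The geometric mean of this probe set fell to 893 at 188 dpn, against 1475 at 28 dpn, by 0.72 ± 0.20 on the log2 scale (limma, adjusted p = 0.0145, 95% confidence interval of the difference -1.13 to -0.32). Without the 3 high-ALB arrays of 188 dpn the difference was -0.59 (adjusted p = 0.173). With each array centred on its median it was -0.46 (adjusted p = 0.135). DNM1L was higher at 28 dpn than at 94 dpc, with 1475 against 833, by 0.82 ± 0.20 (adjusted p = 0.00287). With the mean of both DNM1L probe sets in place of the brighter one this became 0.36 (adjusted p = 0.341). DNM1L at 188 dpn differed from 94 dpc by 0.10 ± 0.20 (95% confidence interval -0.31 to 0.51, adjusted p = 0.733). The step between 1 dpn and 94 dpc was 0.44 ± 0.20 (adjusted p = 0.0932) and that between 28 dpn and 1 dpn 0.38 ± 0.20 (adjusted p = 0.185). The first passed after quantile normalization (0.62, adjusted p = 0.0182) and after centring arrays on their medians (0.77, adjusted p = 0.00473). The second passed without the low-ratio arrays of 1 dpn (0.69, adjusted p = 0.0396).

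The dimmer DNM1L probe set disagreed with the brighter one around birth. Its lowest, median and highest signals were 92.0, 121 and 224 at 94 dpc, and 6.56, 57.0 and 118 at 1 dpn. They were 81.8, 130.05 and 179.9 at 28 dpn, and 41.5, 60.4 and 81.1 at 188 dpn. It exceeded background on 6, 2, 6 and 1 of the 6 arrays in stage order, so that its 1 dpn and 188 dpn levels were mostly bounds. At 1 dpn it fell against 94 dpc (log2 difference -1.92 ± 0.51, adjusted p = 0.00634), which against the background level is at least 1.67-fold lower. At 28 dpn it rose against 1 dpn (1.83 ± 0.51, adjusted p = 0.0138), or at least 1.57-fold. In these bounds an array of the dimmer stage is taken at background or at its own signal, whichever is higher.

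Both calls of the dimmer probe set rested on 1 dpn animals 1 to 3, with 6.56 to 39.8, against 74.2 to 118 in animals 4 to 6. Without those 3 arrays the differences were -0.62 (adjusted p = 0.161) and 0.53 (adjusted p = 0.308). The brighter probe set had 1233 to 1616 in the same animals 1 to 3 and 662 to 1355 in animals 4 to 6, so the probe sets of 1 gene parted in opposite directions on the low-ratio arrays. The mean of both probe sets turned the sign of DNM1L at 1 dpn against 94 dpc, to -0.74 (adjusted p = 0.038). The part of the low 5′ signal in this disagreement was not tested.

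**Figure D2:**
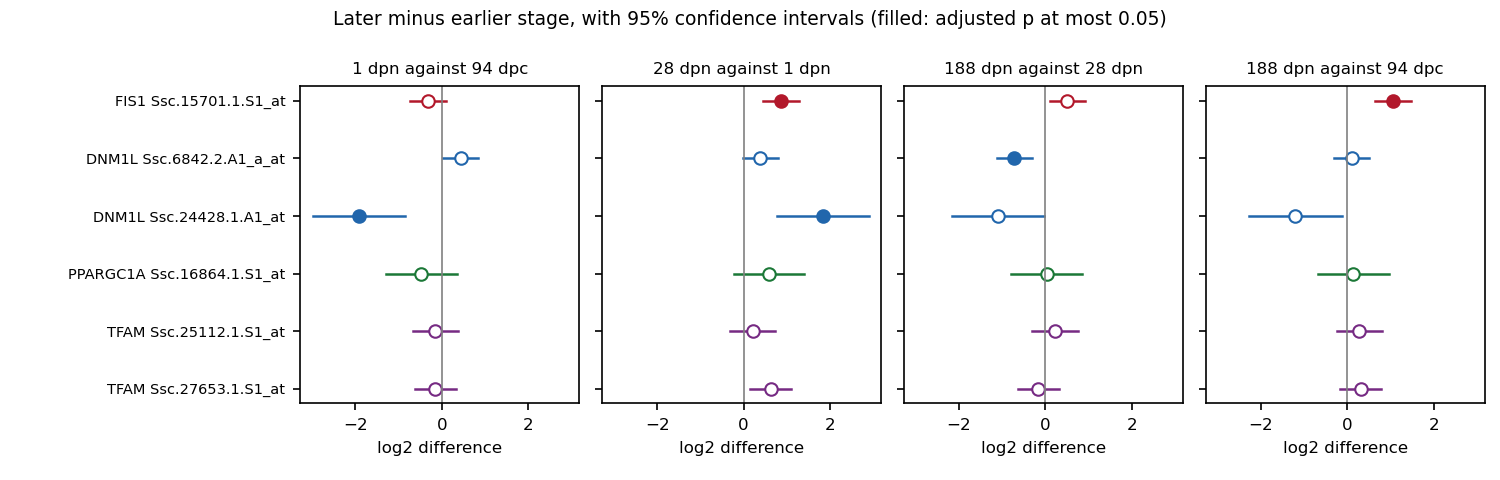
Log2 differences, later minus earlier stage (horizontal axis), with 95% confidence intervals, for the 6 member probe sets whose mean over all arrays exceeded background (rows) in 4 comparisons (panels). Filled points passed an adjusted p of 0.05: FIS1 at 28 dpn against 1 dpn and at 188 dpn against 94 dpc, the brighter DNM1L probe set at 188 dpn against 28 dpn, and the dimmer one at 1 dpn against 94 dpc and at 28 dpn against 1 dpn.

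FIS1 and DNM1L thus changed unequally at the last step. Within each array the log2 signal of FIS1 minus that of the brighter DNM1L probe set had a mean of 2.76 ± 0.39 at 188 dpn and 1.53 ± 0.21 at 28 dpn (SD, n = 6 each). All 6 arrays of 188 dpn lay above all arrays of 28 dpn, and the change of 1.23 had an exact permutation p of 0.00216, the smallest that 6 against 6 arrays can give (two-sided; adjusted p = 0.00576 over 8 such tests). It was 0.93 without the high-ALB arrays (exact permutation, adjusted p = 0.0317). At 188 dpn against 94 dpc the change was 0.96 (exact permutation, adjusted p = 0.0432), but 0.66 without the high-ALB arrays (adjusted p = 0.175, exact permutation). That call was also lost when any 1 of 188 dpn animals 1, 2, 3, 4 and 6 or 94 dpc animals 1, 2, 5 and 6 was left out, with changes of 0.80 to 1.00 (exact permutation, adjusted p = 0.0606 to 0.0822). The change missed the threshold at 1 dpn against 94 dpc (-0.76, exact permutation, adjusted p = 0.166) and at 28 dpn against 1 dpn (0.48, exact permutation, adjusted p = 0.177). This pair of genes was chosen after its values were seen, since no probe set was matched to the fusion partners by annotation. A difference within an array shows unequal change, not a ratio of the molecules.

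The brighter minus the dimmer DNM1L probe set, another pair chosen after its values were seen, changed by 2.36 at 1 dpn against 94 dpc, with 6 of 6 arrays beyond all others (exact permutation, adjusted p = 0.00576). Without the low-ratio animals 1 to 3 of 1 dpn the change was 0.76 (exact permutation, adjusted p = 0.0317), and with them it rested on signals of the dimmer probe set that mostly lay under background. With signals under background set to background it was 1.18 (exact permutation, adjusted p = 0.00576). Without 94 dpc animal 1 or animal 2 it was 2.28 or 2.30 (exact permutation, adjusted p = 0.0576), though every 1 dpn array still lay above every 94 dpc array. It changed by 1.30 at 188 dpn against 94 dpc, also in 6 of 6 arrays (exact permutation, adjusted p = 0.00576), but 5 of the 6 dimmer signals at 188 dpn were under background, and with those set to background the change was 0.945 (exact permutation, adjusted p = 0.00576). The changes of -1.44 at 28 dpn against 1 dpn and 0.38 at 188 dpn against 28 dpn missed the threshold (exact permutation, adjusted p = 0.173 and 0.177).

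**Figure D3:**
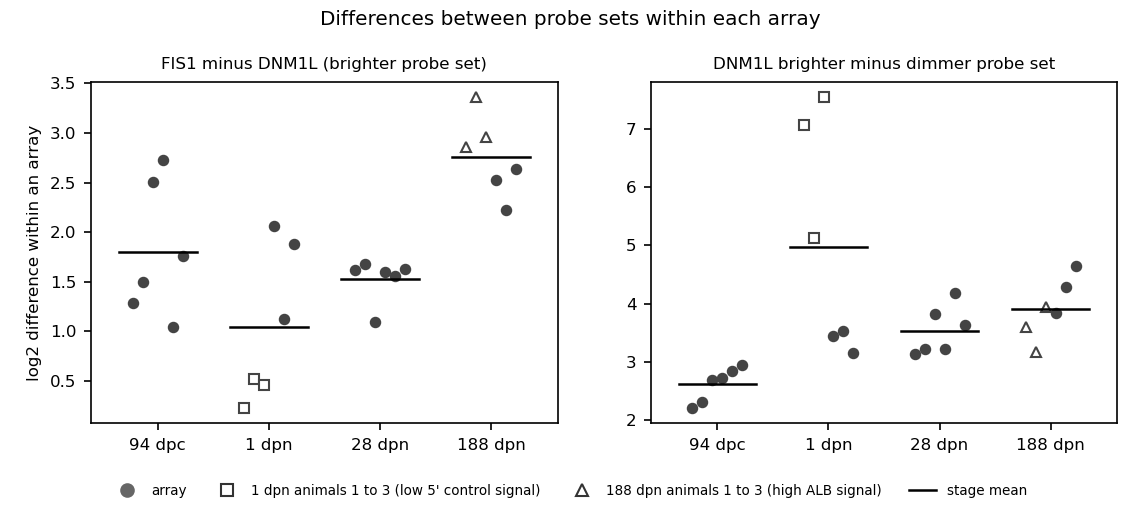
Differences between log2 signals within each array (vertical axes) by stage (horizontal axes), for FIS1 minus the brighter DNM1L probe set and for the brighter minus the dimmer DNM1L probe set, with stage means as black lines. In the first panel all 188 dpn arrays lie above all 28 dpn arrays, and in the second 1 dpn animals 1 to 3 (squares) lie above all other arrays.

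PPARGC1A, the coactivator, passed the test at no stage. Its probe set had a lowest, median and highest signal of 316, 534 and 791 at 94 dpc, and of 175, 330.5 and 875 at 1 dpn. At 28 dpn these were 402, 558 and 706, and at 188 dpn 287, 511 and 1164. All stages overlapped. The log2 difference was -0.47 ± 0.39 at 1 dpn against 94 dpc (95% confidence interval -1.29 to 0.35, limma, adjusted p = 0.403). It was 0.58 ± 0.39 at 28 dpn against 1 dpn (adjusted p = 0.334) and 0.03 ± 0.39 at 188 dpn against 28 dpn (95% confidence interval -0.79 to 0.84, adjusted p = 0.981). Between 188 dpn and 94 dpc it was 0.14 ± 0.39 (adjusted p = 0.82).

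The spread of PPARGC1A at 1 dpn was a split between animals. Animals 1 to 3, with the low EF1A ratio, had 175, 228 and 194, and animals 4 to 6 had 814, 875 and 432. With animals 1 to 3 alone PPARGC1A would be called lower than at 94 dpc (-1.36, adjusted p = 0.00625), and at 28 dpn higher than in them (1.47, adjusted p = 0.00416). With animals 4 to 6 alone the same differences were 0.415 (adjusted p = 0.467) and -0.30 (adjusted p = 0.678). The direction of PPARGC1A around birth therefore depended on which 3 animals were kept, and the part of RNA quality in it was not tested. A wide spread was also present at 188 dpn, where the high-ALB animals 1 to 3 had 781, 287 and 1164 and animals 4 to 6 had 512, 440.1 and 511.

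TFAM, the packaging and transcription factor of mitochondrial DNA, had 4 probe sets, and its brightest passed no test. Its lowest, median and highest signals were 323, 672 and 1067 at 94 dpc and 346, 665 and 784 at 1 dpn. They were 548, 667 and 958 at 28 dpn and 678, 804 and 939 at 188 dpn. The stages overlapped, and the 188 dpn arrays lay closest together, with an SD of 0.18 on the log2 scale against 0.63 at 94 dpc. The log2 differences were -0.15 ± 0.25 at 1 dpn against 94 dpc and 0.21 ± 0.25 at 28 dpn against 1 dpn (limma, adjusted p = 0.704 and 0.628). They were 0.22 ± 0.25 at 188 dpn against 28 dpn and 0.28 ± 0.25 at 188 dpn against 94 dpc (adjusted p = 0.646 and 0.42). The last of these became 0.81 with each array centred on its median (adjusted p = 0.00987), so that TFAM passed in that scaling.

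The next brightest TFAM probe set lay near background, with 79.8 to 159.9 at 94 dpc and 60.9 to 141 at 1 dpn. The 28 dpn arrays had 127 to 187 and the 188 dpn arrays 86.9 to 181. The difference between 28 dpn and 1 dpn was 0.62 ± 0.23 (adjusted p = 0.055), and passed without the dimmest 30% of probe sets (adjusted p = 0.0342). At 188 dpn it differed from 94 dpc by 0.31 ± 0.23 (adjusted p = 0.31), and passed after quantile normalization (0.77, adjusted p = 0.0089) and after median centring (0.84, adjusted p = 0.00445). The 2 dimmest TFAM probe sets were designed from 1 shared sequence record and had all stage means under background. The brighter of this pair exceeded background on 2, 2, 1 and 1 of 6 arrays in stage order and the dimmest on 1 array of 1 dpn. The dimmest passed the test at 188 dpn against 94 dpc (adjusted p = 0.0386), with geometric means of 7.93 at 188 dpn and 34.0 at 94 dpc, both under background, so no fold is given. That call was lost without the high-ALB arrays of 188 dpn, and also without animal 5 of 94 dpc.

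Counted over the 8 probe sets, few members passed in any comparison. At 1 dpn against 94 dpc 1 was called, against 31.0% of all probe sets. The comparison of 28 dpn with 1 dpn gave 2 (20.7% of all), that of 188 dpn with 28 dpn 1 (14.6%), and that of 188 dpn with 94 dpc 2 (39.9%), including the TFAM probe set under background. Between 28 dpn and 94 dpc 2 were called (27.8%) and between 188 dpn and 1 dpn 1 (34.9%). The F test over the 4 stages called 3 of 8, FIS1 (adjusted p = 1.99e-05) and both DNM1L probe sets (adjusted p = 0.00428 and 0.00705), against 52.3% of all probe sets. These shares are near or under the background shares.

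FIS1 was the only member whose brightest probe set ranged over at least 1 on the log2 scale between stage means, and its pattern was compared with 5480 genes above background. The smallest root mean square differences of centred log2 values over 24 arrays belonged to GABARAPL2, a ubiquitin-like protein of autophagosome membranes (0.238), TOLLIP, an adaptor that binds ubiquitin (0.254), and SUMO3, a small ubiquitin-like modifier (0.259). The median over all genes was 0.862. GABARAPL2 had geometric means of 4874, 4183, 6439 and 9533 in stage order, with its lowest at 1 dpn and its highest at 188 dpn, as FIS1 had. At 1 dpn the low-ratio animals 1 to 3 lay below animals 4 to 6 in FIS1 and in each of these genes. Centred log2 values were -1.10 to -0.87 against -0.58 to -0.03 for FIS1, and -0.86 to -0.73 against -0.34 to -0.03 for GABARAPL2. The low at 1 dpn thus rested in part on those arrays, and the ranking was not repeated without them. All of these values come from the same arrays and share their scaling.

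**Figure D4:**
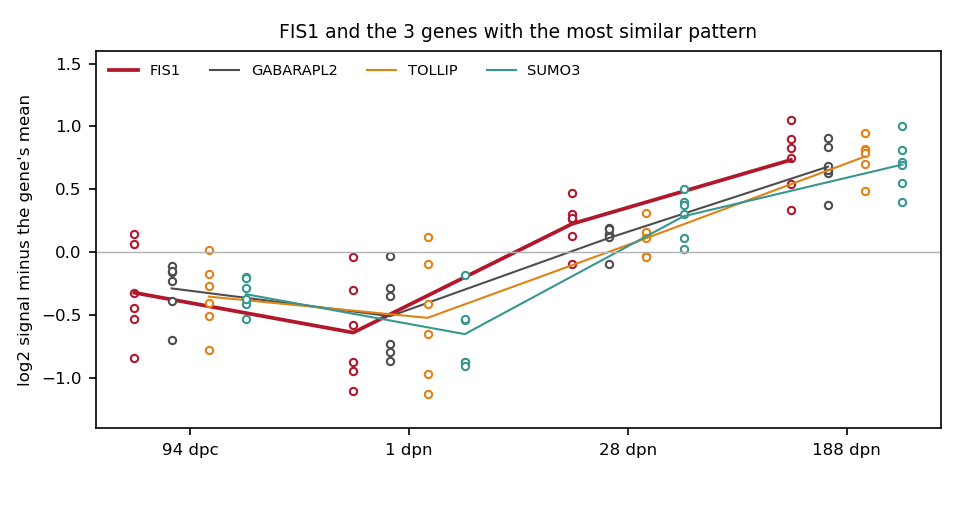
Log2 signal minus the gene's own mean (vertical axis) by stage (horizontal axis) for FIS1 and the 3 genes with the smallest root mean square difference from it; circles are arrays and lines join stage means. All 4 genes have their lowest stage mean at 1 dpn, where the low-ratio animals 1 to 3 lie lowest, and their highest at 188 dpn.

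The partners and regulators of PPARGC1A, among them nuclear receptors, kinases and deacetylases, moved both ways in the deposited scaling. Of 24 measured regulators of biogenesis (of 36 listed), 5 were higher and 6 lower at 1 dpn than at 94 dpc, against 17.1% and 20.7% of all genes by their brightest probe set. These counts were 6 and 1 with median centring, 6 and 4 with quantile normalization, and 3 and 5 without the low-ratio arrays. At 28 dpn against 1 dpn 6 were higher and 4 lower, against 13.3% and 13.4%. Of 7 measured subunits of the AMP-activated kinase, an energy sensor, 2 rose, 1 fell and 4 missed the threshold. PRKAB2 had 1168 at 28 dpn and 277 at 1 dpn (log2 difference 2.08 ± 0.22, adjusted p = 1.28e-06), and PRKAA2 rose by 1.61 ± 0.28 (adjusted p = 0.000278). PRKAG1 fell by 0.71 ± 0.17 (adjusted p = 0.00393). At 188 dpn against 28 dpn 1 was higher and 5 lower, against 6.16% and 14.3%. They included PPRC1, a relative of PPARGC1A, which had 193 against 396 and fell by 1.03 ± 0.16 (adjusted p = 0.000128). At this step 1 was higher and 1 lower with quantile normalization, 3 and 1 with median centring, and 0 and 1 without the high-ALB arrays. The list median was -0.17, 0.10 and -0.13 over the 3 steps, against -0.06, -0.02 and -0.12 for all genes.

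TFAM works in the setting of mitochondrial DNA maintenance. Genes of this list were higher at 1 dpn than at 94 dpc in 4 of 14 and lower in none. The shares of all genes were 17.1% and 20.7%, and without the low-ratio arrays 5 of the 14 were higher and none lower. The largest rise was that of SLC25A4, the adenine nucleotide carrier, with 48294 at 1 dpn and 16879 at 94 dpc (1.52 ± 0.14, adjusted p = 4.83e-08). At 28 dpn against 1 dpn 1 gene was higher and 1 lower, both shares under the 13.3% and 13.4% of all genes. The higher gene was RRM2B, a ribonucleotide reductase subunit that supplies DNA precursors (adjusted p = 0.000958). It had 310.3 at 28 dpn and 68.8 at 1 dpn, where 2 of 6 arrays exceeded background, and so was at least 3.35-fold higher. SLC25A4 was the 1 gene lower there (-0.42 ± 0.14, adjusted p = 0.0311). TFAM differed by -0.15 and 0.21 in the same comparisons.

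In the company of FIS1 and DNM1L, 20 genes of fusion, fission and cristae shaping were measured. At 1 dpn against 94 dpc 10 were higher and 1 lower, against 17.1% and 20.7% of all genes. Without the low-ratio arrays the counts were again 10 and 1. The rises were led by MICOS10 (1.69 ± 0.14, adjusted p = 1.26e-08) and IMMT (1.24 ± 0.18, adjusted p = 2.39e-05), core subunits of the complex that forms cristae junctions. At 28 dpn against 1 dpn 1 was higher and 5 lower, against 13.3% and 13.4% of all genes, or 1 and 4 without the low-ratio arrays. The rise was YME1L1, an inner membrane protease that cuts OPA1, with 3027 against 896 (1.76 ± 0.19, adjusted p = 1.18e-06). Where DNM1L fell, at 188 dpn against 28 dpn, 6 fell and 1 rose, against 14.3% and 6.16% of all genes. IMMT fell by 1.04 ± 0.18 (adjusted p = 0.000446). The gene that rose was MFF, the receptor of DNM1L, named after its value was seen, with 2954 against 2212 (0.42 ± 0.14, adjusted p = 0.0487). No gene of the list was higher at that step with quantile normalization or without the high-ALB arrays. The falls numbered 5 with quantile normalization, 3 without those arrays and 2 with median centring.

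Genes of mitophagy, the removal of damaged mitochondria, were higher at 188 dpn than at 94 dpc in 10 of 18 and lower in 1, against 19.9% and 30.2% of all genes. In this interval FIS1 rose by 1.06. GABARAPL2 is in this list, but it was picked above for its likeness to FIS1 on these same arrays. Its course is therefore no separate result, and a link of FIS1 with the list was not tested. At 188 dpn against 28 dpn 5 of the 18 rose and none fell, against 6.16% and 14.3% of all genes. Without the high-ALB arrays 3 rose. The rises were led by the cargo receptors SQSTM1 (1.43 ± 0.27, adjusted p = 0.000813) and OPTN (1.43 ± 0.24, adjusted p = 0.000312). BNIP3L, a receptor on the outer membrane, fell by 1.88 ± 0.26 at 1 dpn against 94 dpc (adjusted p = 9.82e-06). There 9 of 18 rose and BNIP3L was the 1 gene lower, against 17.1% and 20.7% of all genes. With quantile normalization 8 rose and 3 fell.

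The genes that PPARGC1A, NRF1 and ESRRA are known to serve moved around birth. PPARGC1A and TFAM missed the threshold there, but the interval of PPARGC1A was wide (-1.29 to 0.35) and its direction depended on the animals kept. No probe set was matched to NRF1 or ESRRA by annotation, so these lists cannot be set against those regulators here. All 29 measured genes of the respiratory chain were higher at 1 dpn than at 94 dpc, against 17.1% of all genes. With quantile normalization 26 were higher, and without the low-ratio arrays all 29. CYCS, cytochrome c, had 16340.4 against 4453 (1.88 ± 0.24, adjusted p = 5.27e-06). Of 12 markers of mitochondrial mass 11 were higher, or 8 with quantile normalization and 12 without the low-ratio arrays. Among these markers SLC25A4, VDAC1, HSPD1 and TOMM20 are also counted in other lists given here. Cell type markers moved with these lists, and their part was not tested. Of 20 skeletal muscle markers 15 rose and 1 fell, with sums of 619221 to 843140 at 1 dpn and 329564 to 477365 at 94 dpc. Endothelial markers fell in 6 of 10 genes, with sums of 4619.6 to 8193 at 1 dpn and 8252 to 14642 at 94 dpc. Fibroblast markers fell in 3 of 7 genes, with sums of 21047.5 to 61839.8 at 1 dpn and 55775 to 63350 at 94 dpc. Of 25 genes of protein import and chaperones 18 were higher and 2 lower, against 17.1% and 20.7% of all genes, or 17 and 1 without the low-ratio arrays. In the last interval, 188 dpn against 28 dpn, 13 respiratory chain genes were lower and 1 higher, against 14.3% and 6.16% of all genes. With quantile normalization 16 were lower and none higher, while 3 were lower with median centring and 1 without the high-ALB arrays. The list median was -0.45 in the reported fit and -0.33 without those arrays.

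**Figure D5:**
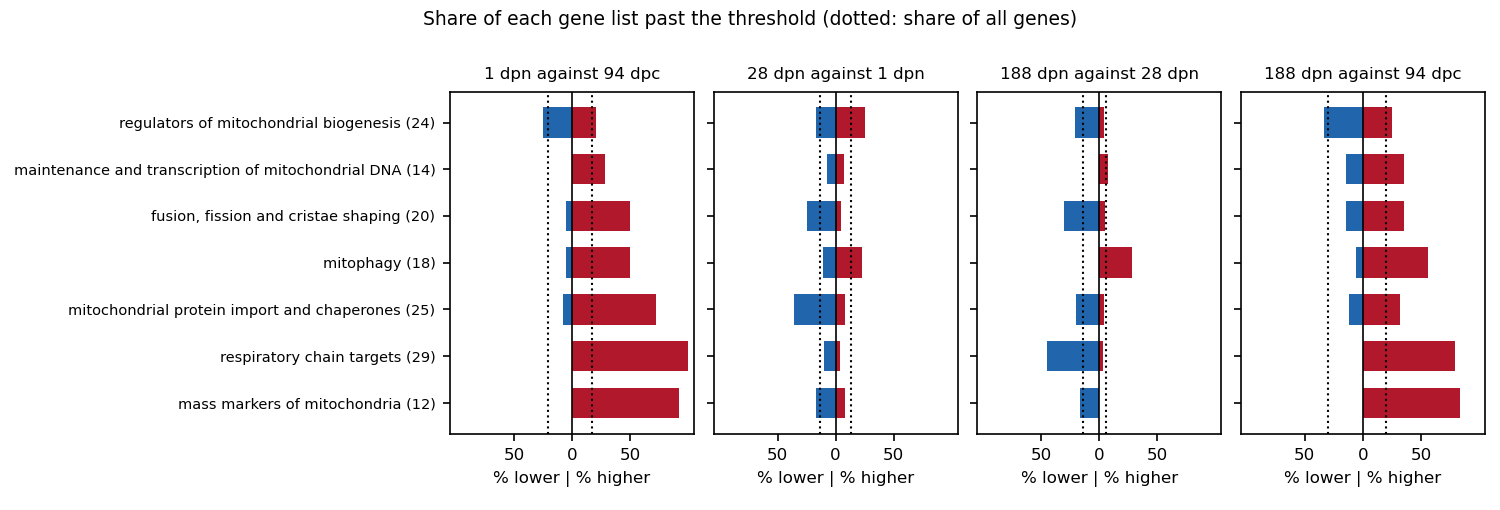
Share of the measured genes of 7 lists (rows, with their number) that were higher (right, red) or lower (left, blue) at an adjusted p of 0.05, as percent (horizontal axis), in 4 comparisons (panels); dotted lines give the shares over all genes. All 29 respiratory chain genes are higher at 1 dpn than at 94 dpc, while regulators of biogenesis lie on both sides of 0 in this scaling.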

How the data were processed

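Total RNA of 24 animals was, per the labels' protocols, made into biotinylated cRNA and hybridised to Affymetrix Porcine Genome arrays. The deposited values are linear signal intensity, 1 per probe set and array, scaled by the authors with GCOS 1.1.1 per the submitters' processing notes; how probes were summarised and to what target arrays were scaled is not given in the sources used here. The mean of an array without 2% of values at each end was 498 to 499. From these values log2 was taken with no constant and no filter. The 183 control probe sets were left out and the other 23935 were fitted in limma 3.58.1 (R 4.3.3), by lmFit and eBayes on all arrays (20 residual degrees of freedom, two-sided, Benjamini-Hochberg, threshold 0.05), in 6 comparisons of stages; the script was tested on simulated data. A gene is represented by its brightest probe set. The number of arrays limits the precision. Background, which 39.2% of tested probe sets did not reach on average, was chosen after the data were seen.

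The members, gene lists and tests were chosen with earlier results of these data known. Symbols come from the platform annotation, and 198 probe sets with several symbols were not used. Named list genes are up to 4 past the threshold with the largest difference per list and step, and the brightest. MFF and PRKAG1 are outside this rule. PRKAG1 was named with the kinase subunits, a subset picked within the list of regulators. Differences within an array were tested by exact permutation over the 12 arrays of both stages. The intended tests of MFN2 with MFN1, ESRRA with PPARGC1A and DNM1L with OPA1 could not be run. No probe set was matched to MFN1, MFN2, ESRRA or OPA1 by annotation. The search of promoters was not run. Alternatives were the normalization, added constants, dim and control probe sets, the arrays in the fit, eBayes settings, array weights, the threshold, several probe sets per gene and left-out animals. Figures were drawn with Python 3.11.15 and matplotlib 3.10.9.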

Additional observations from a re-analysis of the deposited data

Results flagged for a closer look

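In 1 of the 32 groups of 6 arrays (8 member probe sets at 4 stages) a single array lay far from the others: the third brightest TFAM probe set had a signal of 9.10 in animal 1 of 94 dpc, with the other 5 arrays at 45.2 to 88.3. This value is below background. Chance alone sets apart about 1 in 20 such groups.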

How the results depend on the processing

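The calls of FIS1 at 188 dpn against 94 dpc and against 1 dpn kept their direction and passed the threshold under every alternative run, and that of the brighter DNM1L probe set at 28 dpn against 94 dpc passed under all but the mean of both DNM1L probe sets. Each other call of a member probe set was lost under at least 1 alternative. Probe sets called out of 8 at 1 dpn against 94 dpc were 1 in the reported fit, 0 with only the 2 stages fitted or without 1 dpn animals 1 to 3, 2 with quantile normalization or median centring, 4 without 1 dpn animals 4 to 6, and 1 to 2 with single animals left out. At 28 dpn against 1 dpn the count of 2 became 1 at an adjusted p of 0.01, with only the 2 stages or without 1 dpn animals 1 to 3, and was 2 to 3 with single animals left out. Between 188 dpn and 28 dpn the count of 1 became 2 with 64 added or with array weights, 3 with only the 2 stages, and 0 at an adjusted p of 0.01 or without 188 dpn animals 1 to 3. Between 188 dpn and 94 dpc the count of 2 became 4 with median centring, 1 at an adjusted p of 0.01 or without either 3 animals of 188 dpn, and 1 to 2 with single animals left out, which removed the TFAM call under background. At 28 dpn against 94 dpc it was 1 at an adjusted p of 0.01 and 1 to 2 with single animals left out. At 188 dpn against 1 dpn it was 3 with median centring, 2 with quantile normalization, 4 without 1 dpn animals 4 to 6 and 1 to 2 with single animals left out. The F test called 5 with median centring and 3 to 4 with single animals left out.

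Differences that changed sign had missed the threshold in the reported fit. Without 1 dpn animals 1 to 3, the log2 difference at 1 dpn against 94 dpc became 0.017 for FIS1 and 0.415 for PPARGC1A, at 28 dpn against 1 dpn -0.30 for PPARGC1A, and at 188 dpn against 1 dpn -0.28 for PPARGC1A and -0.57 for the dimmer DNM1L probe set. The change of FIS1 minus DNM1L at 28 dpn against 1 dpn became -0.16 and that of the DNM1L probe sets 0.16. With median centring, FIS1 became 0.0082 at 1 dpn against 94 dpc, TFAM 0.18 in both its brightest and its next brightest probe set, and at 188 dpn against 28 dpn the next brightest became 0.10; the dimmer DNM1L probe set became 0.17 at 28 dpn against 94 dpc. With quantile normalization these 4 TFAM and DNM1L values were 0.084, 0.065, 0.10 and 0.14. The mean of all probe sets gave DNM1L -0.74 at 1 dpn against 94 dpc, 0.19 at 188 dpn against 1 dpn and -0.55 at 188 dpn against 94 dpc, and TFAM -0.30 at 188 dpn and -0.32 at 28 dpn against 94 dpc. Without 188 dpn animals 1 to 3, PPARGC1A became -0.17 against 28 dpn and -0.059 against 94 dpc, and without animals 4 to 6 DNM1L became -0.032 against 94 dpc. With 64 added, the change of the DNM1L probe sets at 188 dpn against 28 dpn became -0.047. With single animals left out, PPARGC1A ranged over -0.19 to 0.22 at 188 dpn against 28 dpn, -0.075 to 0.33 at 188 dpn against 94 dpc and -0.024 to 0.24 at 28 dpn against 94 dpc, TFAM over -0.36 to 0.0071 at 1 dpn and -0.15 to 0.20 at 28 dpn against 94 dpc, and the dimmer DNM1L probe set over -0.21 to 0.049 at 28 dpn against 94 dpc. The causes were not tested. Leaving out 1 dpn or 188 dpn animals 4 to 6, setting signals under background to background, and both pairs tested within arrays were chosen after the data were seen. The gene lists were run with both other scalings and without animals 1 to 3 of 1 dpn or 188 dpn, not with single animals left out. Signals near background limit the dimmer DNM1L and the TFAM probe sets other than the brightest.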
